A study of Mus musculus with 3 samples.

Results

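The cells described here were skin keratinocytes with a very high level of Cst6 and with transcripts of the kallikreins Klk6 and Klk10. They were chosen cell by cell from the counts: Cst6 made up 0.5% or more of the unique molecular identifiers (UMIs, which count captured transcripts) of the cell, and Klk6 and Klk10 together had 3 or more UMIs. In all, 116 of 8851 kept cells met this rule, and the libraries aged P38, 6 months and 12 months gave 31, 59 and 26 of their 2109, 3502 and 3240 kept cells. These are shares of 1.47% (1.001 to 2.08), 1.68% (1.28 to 2.17) and 0.802% (0.525 to 1.17), with exact binomial 95% intervals that cover counting error only. Where 3 values follow each other they stand for P38, 6 months and 12 months in that order. The cells that met the whole rule are called Cst6-high kallikrein cells in what follows. Without regard to kallikreins, 118, 1549 and 137 kept cells passed the Cst6 limit. Of these, 16, 1437 and 32 had fewer than 1000 genes, so at 6 months most were shallow barcodes. The Cst6 limit alone was thus not a rare trait at 6 months.

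The study followed the mouse hair follicle (HF) during ageing by single-cell RNA sequencing of back skin (10X Genomics 3′ chemistry). The labels give the genotype of all mice as Wildtype and no treatment, while the study describes mice with a Krt14-H2BGFP transgene. For each age, 1 library was analysed: P38 (male, HFs in catagen), 6 months (female, mostly anagen) and 12 months (male, telogen and anagen mixed). According to the study, epithelial cells were sorted by the H2B-GFP that a Krt14 promoter drives, together with surface proteins, and mixed at a fixed proportion of epidermal to HF cells, whereas the labels describe dissociated back skin loaded as it was. Age therefore came together with hair cycle stage, library, depth and, at 6 months, sex, and these cannot be told apart; with 1 library per age no difference between ages has a replicate check, and no test was made.

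The libraries held 2397, 4761 and 5421 barcodes, and a barcode was kept if it had over 200 but below 5000 genes and a mitochondrial share below 15%. The Cst6-high kallikrein cells summed to 766695, 831602 and 301049 UMIs, with medians of 25204, 12484 and 12199 UMIs per cell. Fewer than 1000 genes were found in 0, 21 and 7 of them. The libraries of 6 and 12 months shared 136 barcodes, against 5 shared by P38 and 6 months and 2 by P38 and 12 months. Of the 26 Cst6-high kallikrein cells at 12 months 6 carried such a barcode, as did 3 of the 59 at 6 months, and 3 of these barcodes met the rule in both libraries with near-equal totals (1671 and 1794, 511 and 534, and 1274 and 1406 UMIs at 12 and 6 months). The remaining shared cells of 12 months had 14504, 673 and 717 UMIs, against 43226, 98176 and 106817 under the same barcodes at 6 months. CPM is the usual depth-scaled count, here relative to all UMIs of a class. Xist, which is expressed in female cells, was at 16.6 CPM in the Cst6-high kallikrein cells of 12 months. In all kept cells of that male library it was at 1.88 CPM. All Xist UMIs of the Cst6-high kallikrein cells of 12 months were in cells with shared barcodes. The source of the shared barcodes was not tested, and values at 12 months that turn on shared barcodes are given with and without them; 107 cells remain without them, of which 20 are at 12 months.

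Keratinocytes that cornify build a protein envelope under the plasma membrane, lose their nucleus and are shed when proteases cut the desmosomes that hold them. Kallikreins are secreted serine proteases of this last step, and Spink5 encodes their inhibitor LEKTI. Cst6 encodes cystatin M/E, an inhibitor of the cysteine proteases legumain and cathepsin L, which mouse skin needs for orderly cornification. In the upper HF, the Krt79-positive cells line the canal through which the hair leaves the skin, and they too differentiate and cornify.

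The rule rests on genes of 2 loci. In GRCm38.p6, Cst6 lies on chromosome 19 (5344705 to 5349574), and Klk10 (43781054 to 43785410) and Klk6 (43824438 to 43832027) lie on chromosome 7 within 39027 bases of each other, with Klk9, Klk8 and Klk7 starting between them. The label markers Krt80, a keratin of differentiating epithelia (chromosome 15, 101348315 to 101370162), and Sprr1a, a precursor of the cornified envelope (chromosome 3, 92483954 to 92485881), were not part of the rule. The label markers were chosen with earlier results of these data known, so their levels are no independent check of the label. The sequences before the start sites of both kallikreins and of Sprr1a are shown because these genes belong to the rule or to the label. They come from RefSeq (GRCm38.p6), run 5′ to 3′ on the strand of the gene and stop before the first annotated base of the gene, at chr7:43824294-43824437 (+) for the first Klk6 start site, chr7:43780804-43781034 (+) for Klk10 and chr3:92485896-92486131 (-) for Sprr1a. Capitals mark matches, on either strand, to TGANTCA (the AP-1 motif), TATAAA (the TATA box) and CACCC (the core bound by Klf factors).
Klk6: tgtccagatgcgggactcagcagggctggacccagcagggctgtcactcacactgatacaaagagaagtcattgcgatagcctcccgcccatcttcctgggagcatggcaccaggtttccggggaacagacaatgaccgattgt
Klk10: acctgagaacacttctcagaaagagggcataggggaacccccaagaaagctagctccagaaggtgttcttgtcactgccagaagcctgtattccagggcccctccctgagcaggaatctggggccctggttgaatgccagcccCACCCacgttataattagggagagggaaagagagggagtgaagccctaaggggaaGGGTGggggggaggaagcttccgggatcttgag
Sprr1a: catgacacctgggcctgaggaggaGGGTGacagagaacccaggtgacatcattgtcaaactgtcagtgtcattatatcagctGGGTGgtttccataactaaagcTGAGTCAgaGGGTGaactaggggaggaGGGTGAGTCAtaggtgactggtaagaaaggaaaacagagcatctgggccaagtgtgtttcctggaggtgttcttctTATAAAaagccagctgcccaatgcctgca
The Sprr1a window held 2 matches to TGANTCA, 1 of which overlaps a CACCC match, 1 to TATAAA and 4 to CACCC. The Klk10 window held 2 matches to CACCC only, and the Klk6 window none of the 3 motifs. Among 32851 RefSeq start sites, 6.75% had TGANTCA, 12.4% TATAAA and 52% CACCC in the 250 bases before the start. The windows shown for Klk6, Klk10 and Sprr1a were shorter, at 144, 231 and 236 bases, so these shares are not for like lengths. A match describes the letters only and shows no binding.

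Cst6 took up a large part of the transcripts of these cells. Its median share was 16.5% (0.617 to 29.3%), 15.2% (0.566 to 43.2%) and 7.95% (0.73 to 35.0%) of the UMIs of a cell. Summed over cells it stood at 145624, 186058 and 98542 CPM, against 18674, 28256 and 17135 CPM in Krt79-high cells, which had Krt79 at 0.2% or more of UMIs and at most 2 UMIs of Klk6 and Klk10 (157, 296 and 208 cells). Krt79-high cells had medians of 17752, 588.5 and 11425 UMIs, and 11, 207 and 40 of them had fewer than 1000 genes. At 6 months they were thus mostly shallow barcodes, in which few UMIs reach the Krt79 limit, and the part of depth in the ratios of that library was not tested beyond the alternatives given at the end. In bulge-type cells (Cd34 and Krt24 of 5 UMIs or more), which should lack it, Cst6 was at 199, 124 and 86.8 CPM. These values chose the cells and are given as a description. Just inside the limit for Cst6, 7 cells had 0.5 to 1%, and just outside it 5 cells, all at 6 months, had 0.25 to 0.5% with 3 or more kallikrein UMIs. Just inside the kallikrein limit 12 cells had exactly 3 UMIs, and just outside it 6, 33 and 4 Cst6-high cells had 2.

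Krt80 and Sprr1a were both higher in Cst6-high kallikrein than in Krt79-high cells at every age. Krt80 had 526, 596 and 787 CPM, against 125, 365 and 331 CPM in Krt79-high cells (log2 ratios 2.07, 0.71 and 1.25). Sprr1a had 22184, 13937 and 8567 CPM, against 8072, 8112 and 1377 CPM (log2 ratios 1.46, 0.78 and 2.64). The ranges of the 2 classes did not overlap for Krt80, while for Sprr1a the lowest value of the Cst6-high kallikrein cells lay just above the highest of the Krt79-high cells, and at 6 months both genes were under 2-fold. Bulge-type cells held 62.2, 35.0 and 42.2 CPM of Krt80 and 532, 98.4 and 36.6 CPM of Sprr1a.

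**Figure D1:**
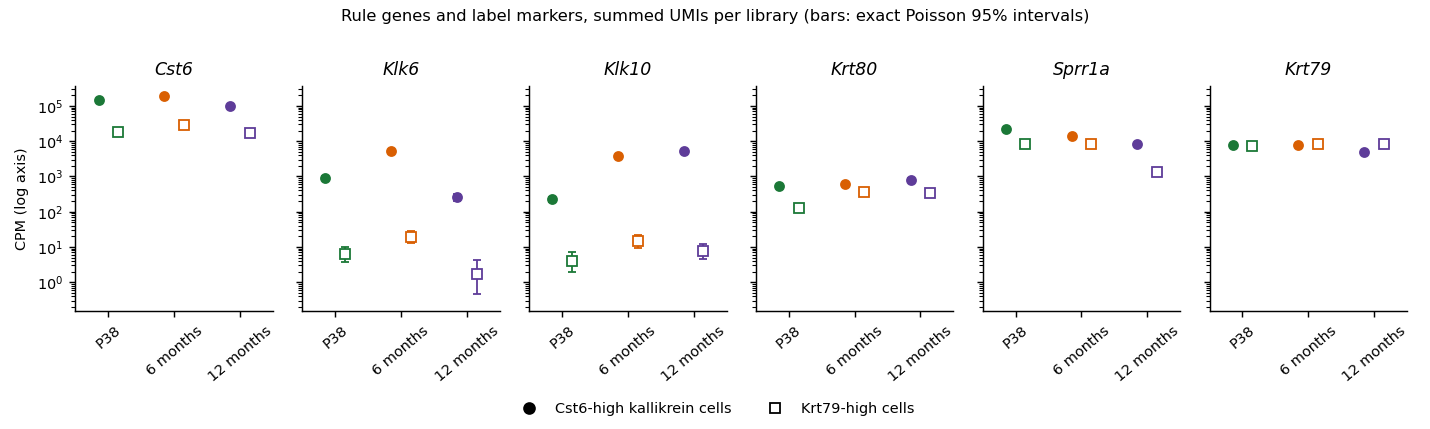
CPM (log axis) of the rule genes, label genes and Krt79 in Cst6-high kallikrein cells (filled circles) and Krt79-high cells (open squares), 1 point per library (P38, 6 months, 12 months) with exact Poisson 95% intervals. Cst6 in Cst6-high kallikrein cells lies between 98542 and 186058 CPM, above Krt79-high cells at every age, while Krt79 is at 7903, 7904 and 5082 CPM in Cst6-high kallikrein and 7123, 8269 and 8299 CPM in Krt79-high cells.

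The 2 kallikreins did not keep a fixed proportion. Klk6 was at 933 (866 to 1004), 5108 (4956 to 5264) and 262 (208 to 327) CPM, with exact Poisson 95% intervals. Klk10 was at 227 (195 to 263), 3773 (3643 to 3908) and 5282 (5025 to 5548) CPM. Klk6 thus made up 80.4% of the UMIs of both at P38, 57.5% at 6 months and 4.73% at 12 months (3.51% without shared barcodes). In Krt79-high cells Klk6 had 6.53, 19.5 and 1.72 CPM and Klk10 3.99, 15.1 and 7.74 CPM, and in bulge-type cells neither passed 6.61 CPM.

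The balance of the 2 kallikreins is also described cell by cell. Both genes belong to the rule, and the cells of an age come from 1 library and are no replicates of it. More Klk6 than Klk10 was found in 26 of 31, 37 of 59 and 5 of 26 cells (2 of 20 at 12 months without shared barcodes). Only Klk6 was detected in 15, 12 and 2 cells, only Klk10 in 0, 3 and 14, and both in 16, 44 and 10. After thinning each cell to 3000 UMIs, which left out 0, 21 and 6 of the cells, Klk6 had a UMI in 71.0, 81.6 and 25% and Klk10 in 19.4, 68.4 and 70.0%. In thinned Krt79-high cells Klk6 had a UMI in 0.69, 4.6 and 0%; there the rule itself sets an upper limit.

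Few cells carried most of the UMIs of both kallikreins at 12 months and of Klk10 at P38. At 12 months 1 cell held 44 of the 79 Klk6 UMIs (55.7%), and 2 cells with 754 and 442 UMIs held 75.2% of Klk10. At P38 2 cells held 70.7% of Klk10, but the highest cell held only 18.6% of Klk6. At 6 months the highest cell held 13.1% of Klk6, and 2 cells held 38.4% of Klk10. A sum of 100 or more UMIs was reached by 1, 17 and 2 cells. The median of these 17 cells of 6 months was 26782 UMIs in all, against 3760 in the other cells of that library, and a median Cst6 share of 27.0% against 9.98%. Spink5 made up 0.766% against 0.103% and Pinlyp, of the Ly6 and PLAUR domain family of phospholipase inhibitors, 0.625% against 0.0237%. The medians thus differed also in depth, whose part was not tested.

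**Figure D2:**
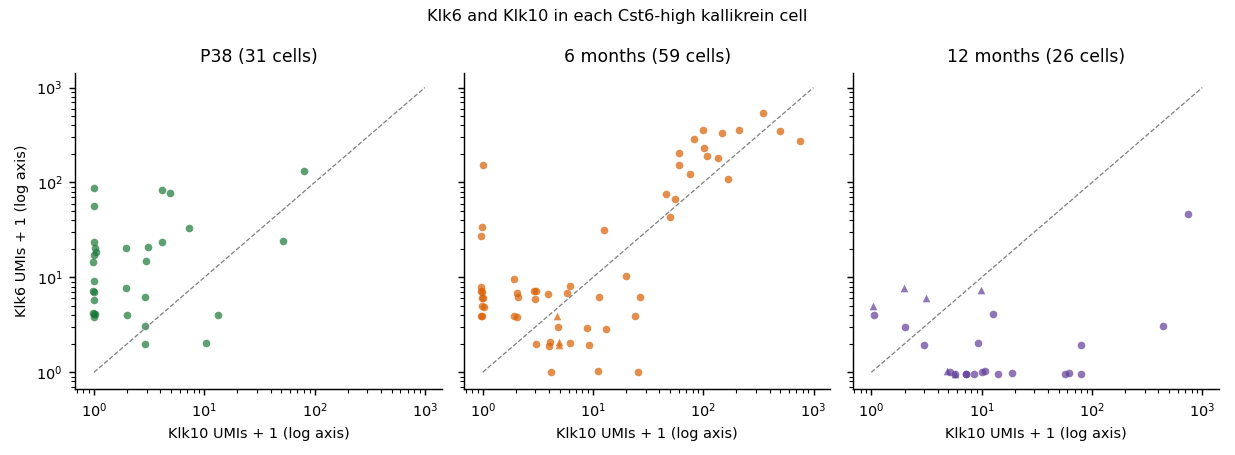
Klk6 (vertical) against Klk10 (horizontal), as UMIs with 1 added on log axes and points shifted slightly to part them, in each of the 116 Cst6-high kallikrein cells, in 1 panel per library; triangles are cells whose barcode is in more than 1 library and the dashed line marks equal counts. At P38 26 of 31 cells have more Klk6, and at 12 months 21 of 26 have more Klk10.

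Cst6-high kallikrein cells split by Defb6, a beta-defensin of upper HF keratinocytes, and Gja1, the gap junction protein connexin 43. With limits of 0.1% of UMIs for Defb6 and 0.03% for Gja1, chosen after the values were seen, 44 cells were Defb6-bearing, 46 Gja1-bearing, 5 both and 21 neither. Gja1-bearing cells numbered 12 of 31, 32 of 59 and 2 of 26, and Defb6-bearing cells 12, 14 and 18. Fewer than 1000 genes were found in 14 Gja1-bearing cells (12 of them at 6 months), 5 Defb6-bearing cells and 9 with neither. In such shallow cells very few UMIs reach these limits. At 6 months 28 cells had 3 or more Gja1 UMIs. The part of depth in this split was not tested. Both Gja1-bearing cells at 12 months carried shared barcodes, so that 0 of 20 remained without them, against 15 Defb6-bearing cells. Below the Gja1 limit, 2 Defb6-bearing cells of 12 months also had a Gja1 UMI, 1 of them without a shared barcode.

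**Figure D3:**
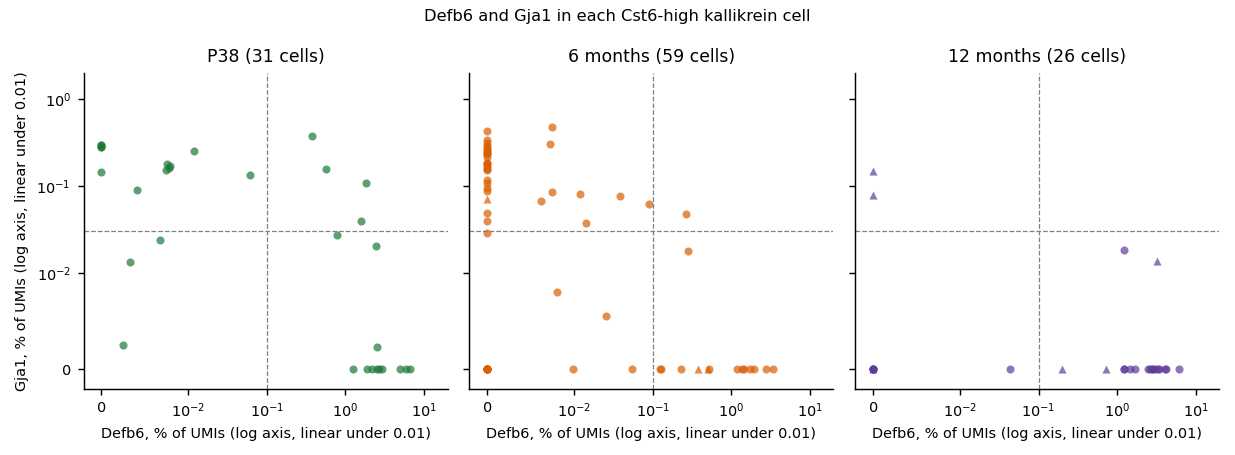
Gja1 (vertical) against Defb6 (horizontal) as a percent of the UMIs of each Cst6-high kallikrein cell, in 1 panel per library (triangles are cells with a shared barcode; axes are logarithmic above 0.01%), with dashed lines at 0.1% Defb6 and 0.03% Gja1. Only 5 of the 116 cells lie above both lines.

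Gja1-bearing cells had Car6, a secreted carbonic anhydrase, which was not detected in Defb6-bearing cells at P38 and 6 months. It stood at 1190 CPM at P38 and 5363 CPM at 6 months, with a UMI in 12 of 12 and 26 of 32 Gja1-bearing cells, against 0 UMIs at either age in Defb6-bearing cells, where 3 counts allow up to 10.8 and 17.7 CPM. Car6 was not limited to Gja1-bearing cells. Cells below both limits had it in 3 of 3 and 7 of 12. Its median share there was 0.464 and 0.104%, against 0.0601 and 0.175% in Gja1-bearing cells. A Gja1 UMI was still found in 3 of these 3 and 3 of these 12 cells, so they did not all lack Gja1. Cells above both limits had Car6 in 3 of 4 and 0 of 1. Of 2499 genes measured at P38 and 6 months, 102 (4.08%) were at least 2-fold higher in Gja1-bearing cells at both ages and 197 (7.88%) at least 2-fold lower. The limits were set on these cells, so these counts are a description.

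Other genes higher in Gja1-bearing cells included a second connexin and secreted factors. Gjb2 (connexin 26) had 675 and 460 CPM, against 14.3 and 0 CPM in Defb6-bearing cells, and Pthlh, the parathyroid hormone-like hormone, 248 and 350 CPM, against 0 and 47.3. Il18, a cytokine of the interleukin-1 family, had 299 and 406 CPM, against 21.5 and 11.8. Cald1, the actin-binding caldesmon, had 852 and 508 CPM, against 35.8 and 231. Each of these was above its level in Defb6-bearing cells at both ages.

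Several keratins differed between these cells, in both directions. Krt77, a keratin of differentiated epidermis, was at 16.1 and 20.7 CPM in the Gja1-bearing cells of P38 and 6 months, against 1226 and 934 CPM in Defb6-bearing cells. Krt10, the keratin of spinous cells, had 86.8 and 14.5, against 1889 and 213, and Krt15, a keratin of basal and bulge cells, 96.5 and 16.6, against 2341 and 1650. Krt14, the basal keratin, had 2495 and 16798 CPM, against 2534 and 1472, and its partner Krt5 804 and 1253, against 462 and 615, while Krt16 turned between the libraries (log2 ratios -3.27 and 3.55). Cd200, an immune-inhibitory surface glycoprotein, had 0 UMIs in Gja1-bearing cells, against 194 and 260 CPM, and Ivl, an envelope precursor, 16.1 and 12.4 CPM, against 161 and 272. Krt79 was at 5659 and 8017 CPM in Gja1-bearing cells, against 13384 and 9420 CPM in Defb6-bearing cells (log2 ratios -1.24 and -0.23), below 2-fold at 6 months, and Krt6a, a keratin of the companion layer and inner bulge, at 3080 and 6232 CPM, against 1351 and 1277. At P38 Klk6 was at 559 CPM in Gja1-bearing against 1201 in Defb6-bearing cells, and at 6 months at 5371 against 260, so the order turned between the libraries. Klk10 had 106 and 3285 CPM in Gja1-bearing, against 53.8 and 467 in Defb6-bearing cells. At 12 months the Defb6-bearing cells held 261 CPM of Klk6 and 4354 CPM of Klk10.

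Beside Krt79-high cells, Cst6-high kallikrein cells had higher levels of Klk7, Klk11, Spink5 and 4 of 9 genes of the cystatin and cysteine protease list, and lower levels of Krt1, 4 of 7 sebaceous genes, Cxcl10 and Ccl2. Of 6809 genes measured (20 or more UMIs in both classes together in each library), 98 (1.44%) were at least 2-fold higher in all 3 libraries and 297 (4.36%) at least 2-fold lower. The median log2 ratio over all genes was -0.59, -0.35 and -0.10, and ratios centred on it gave 187 higher and 145 lower. Both classes were chosen from the same counts, so the comparison carries no test, and means ± SD are over the 3 libraries.

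Among kallikreins, Klk7, the chymotryptic protease of the stratum corneum, and Klk11 were higher in every library, 2 of 4 measured. The median over the list of the mean log2 ratio per gene was 1.84, against -0.37 over all genes. Klk7 was at 7407, 4147 and 1568 CPM, against 974, 1461 and 446 CPM in Krt79-high cells (log2 ratio 2.08 ± 0.75). After thinning, it had a UMI in 100, 97.4 and 80.0% of Cst6-high kallikrein cells, against 51.0, 59.8 and 41.3% of Krt79-high and 2.12, 2 and 0.44% of bulge-type cells. Thinning left out 12, 209 and 41 Krt79-high cells, and the unthinned shares were 100, 98.3 and 88.5%, against 66.2, 38.2 and 48.6% of Krt79-high cells. Klk11 was far lower, at 30.0, 126 and 73.1 CPM, against 10.2, 17.0 and 22.3 CPM (2.06 ± 0.71). Klk8 had log2 ratios of 0.79, -1.26 and 0.05 and so no common direction, and Klk5, which activates Klk7, had 2.90, 1.12 and 0.86, below 2-fold at 12 months.

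Spink5 and the membrane serine protease Prss27 were the 2 of 11 measured serine protease inhibitors and activators that passed. Spink5 had 2185, 5186 and 3252 CPM, against 348, 627 and 601 CPM (2.71 ± 0.31), with no overlap between the classes. Prss27 had 80.9, 69.7 and 76.4 CPM, against 1.09, 5.03 and 2.15 CPM (4.92 ± 1.15). It was found in 11, 12 and 8 cells, and without the highest cell of each library it no longer counted as higher.

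The cystatin and cysteine protease list had 4 of 9 higher and none lower. Cstb, the intracellular cystatin B, had 16428, 12920 and 2857 CPM, against 7503, 5117 and 1123 CPM (1.27 ± 0.12). Ctsb, cathepsin B, had 2451, 2751 and 844 CPM, against 497, 466 and 287 CPM (2.14 ± 0.52). Ctsl and Ctsd, cathepsins L and D, also passed, Ctsl with 2.90 ± 1.86, but not without their highest cell, and at 12 months 1 cell held 89% of Ctsl. Without Gja1-bearing cells Cstb and Ctsd were no longer called. Legumain (Lgmn) had log2 ratios of -0.23, -0.11 and 1.85.

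Structural genes of the granular layer did not set these cells apart. Of 9 measured, 0 were 2-fold higher or lower in every library (median 0.57). Lor, loricrin, was at 1469, 62.5 and 498 CPM, against 22.9, 790 and 91.1 CPM in Krt79-high cells, and at P38 nearly all of it came from 1 cell. Flg, filaggrin, was at 84.8, 96.2 and 16.6 CPM, against 0.726, 1135 and 106. Neither gene had 1 direction over the libraries, Lor had a UMI in only 37 of 116 cells and Krt1, the keratin partner of Krt10, in 7. Krt1 was lower in every library, at 14.3, 1.20 and 3.32 CPM, against 214, 33.9 and 275 CPM.

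Enzymes that act during cornification and envelope formation were partly higher. Asprv1, the aspartic protease that processes filaggrin, had 5829, 4483 and 2129 CPM, against 577, 1531 and 217 CPM (2.73 ± 1.02). Tgm1, the transglutaminase that crosslinks the envelope, had 339, 128 and 116 CPM, against 35.6, 62.2 and 21.9 CPM, and Dnase1l2, a nuclease of cornifying cells, 110, 61.3 and 56.5 CPM, against 2.18, 10.1 and 4.73 CPM. Asprv1 passed without its highest cell, Tgm1 and Dnase1l2 did not. Of 14 measured lipid barrier genes 0 were higher, and Fa2h, a fatty acid hydroxylase, was lower. The 2 small proline-rich and 2 late cornified envelope genes measured included none that passed. The 22 listed late envelope genes summed to 2367, 1233 and 6746 CPM, against 71.1, 1349 and 203 CPM in Krt79-high cells. They were thus higher at P38 and 12 months but not at 6 months. Only 8, 17 and 9 cells had 3 or more of these UMIs, and at 12 months Crct1 reached 17.0% of the UMIs of 1 cell.

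Of the genes with the highest ratios, several rested on Gja1-bearing cells or on single cells: without Gja1-bearing cells Car6, Atp1b1, Prss27, Serpinb11 and Pthlh were no longer called. Pinlyp had 785, 8666 and 349 CPM, against 71.9, 80.5 and 43.4 CPM (4.40 ± 2.04), and at 12 months 114 CPM without shared barcodes. Car6 had the highest mean ratio, 6.13 ± 2.14, with 1132, 3329 and 143 CPM, against 81.0, 12.6 and 1.29 CPM. At 12 months all Car6 UMIs were in 2 cells with shared barcodes, and 0 remained without them. Cpa4, a carboxypeptidase, had 136, 52.9 and 130 CPM, against 2.90, 6.29 and 0 CPM, at least 100-fold higher at 12 months with 3 counts as the floor of the class, where 85% of it came from 1 of 3 cells. Pthlh and Serpinb11, the second of the intracellular serpin family, passed with 3.97 ± 2.78 and 4.56 ± 1.68; 1 cell held 92% of Pthlh at 12 months and the whole of Serpinb11 at P38.

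Among the other genes were some spread over more cells. Cryab, a small heat shock protein, had 132, 529 and 518 CPM, against 12.3, 28.9 and 32.2 CPM (3.86 ± 0.41), in 12, 32 and 18 cells. Calhm5, of a family of ion channels, had 78.3, 99.8 and 130 CPM, against 8.35, 12.6 and 12.0 CPM (3.20 ± 0.23). Trp53inp2, which takes part in autophagy, had 397, 352 and 146 CPM, against 79.9, 25.8 and 18.1 CPM (3.03 ± 0.72). These 3 genes lay above Krt79-high cells in 3 of 3 libraries and still did so when the highest cell of each library was left out. Atp1b1, a subunit of the sodium pump, Prss22, a serine protease, Anxa9, an annexin, Il18 and AA467197 completed the 15 with the highest ratios, at mean log2 ratios between 3.10 and 3.85.

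Il18 was the only 1 of 7 measured antimicrobial and alarmin genes to pass, at 288, 428 and 16.6 CPM, against 8.35, 19.5 and 7.31 CPM, and at 12 months the interval of its log2 ratio ran over 0 (-0.61 to 2.68). Il18 had a UMI in 3 of 26 cells at 12 months and was no longer called without its highest cell in each library. Btc, betacellulin, was the only 1 of 6 EGF family ligands to pass, at 90.0, 115 and 66.4 CPM, against 16.3, 39.0 and 7.31 CPM (2.40 ± 0.81). Areg, amphiregulin, had log2 ratios of -0.22, 0.52 and 1.86 and Tgfa of 0.16, 1.94 and 2.38. Among 21 transcription factors, Prdm1 (Blimp1) and Hopx were higher, with 2.25 ± 1.13 and 1.51 ± 0.38, and Gata3 was lower, at 23.5, 15.6 and 69.8 CPM, against 120, 160 and 222 CPM. Cldn23, a claudin, and Cgn, cingulin, were the 2 of 10 tight junction genes that were higher, and 1 of 11 desmosome genes, Dsg2, was lower. Hopx and Cgn were no longer called without their highest cell, nor Cgn without Gja1-bearing cells.

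Upper follicle genes went in both directions beside Krt79-high cells. Of 11 measured upper follicle genes, Lrig1 (1.68 ± 0.15), an inhibitor of EGF receptor signalling, Atp6v1c2 (1.46 ± 0.42), a subunit of the vacuolar proton pump, and Teddm3 (2.59 ± 1.21) were higher than in Krt79-high cells, and Sostdc1 (-3.75 ± 0.19), a BMP and Wnt antagonist, and Aldh3a1 (-2.36 ± 0.59), an aldehyde dehydrogenase, lower. Lrig1 was no longer called without Gja1-bearing cells, nor Atp6v1c2 without its highest cell in each library. Krt79 at 0.2% or more was found in 89 of the 116 cells, 27 of 31, 43 of 59 and 19 of 26. Defb6 was at 12890, 2987 and 21202 CPM, against 12402, 8078 and 10075 CPM, so that it was below Krt79-high cells at 6 months and above them at 12 months. Krt17, a keratin of HF and stressed skin, had 12793, 13508 and 6447 CPM, against 7590, 10103 and 10067. At P38 and 6 months Krt15 was lower in Gja1-bearing than in Defb6-bearing cells, and Gja1-bearing cells also had Gjb2 and Cald1, genes of the migratory niche list. That list had 2 genes measured and 0 that passed in every library, and its summed level was 1941, 1893 and 59.8 CPM, against 827, 452 and 40.8 CPM in Krt79-high cells.

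The genes lower than in Krt79-high cells were led by Cers4, a ceramide synthase, at 1.30, 7.21 and 0 CPM, against 140, 157 and 77.8 CPM, at least 7.81-fold lower at 12 months. The chemokine Cxcl10 was at 1.30, 4.81 and 0 CPM, against 39.6, 232 and 74.4 CPM, and Ccl2 at 17.0, 0 and 3.32 CPM, against 585, 99.3 and 29.2 CPM. Of 7 measured sebaceous gland genes 4 were lower, with a list median of -2.46: Scd1, the stearoyl-CoA desaturase of sebum, was at 40.4, 61.3 and 16.6 CPM, against 533, 1274 and 256 CPM, followed by Mgst1, Elovl6 and Soat1. Far2, Elovl3, Pyy and Gm5678 were the remaining genes of the 10 lowest. Cd74, H2-Aa and H2-Ab1, the 3 measured genes of the Langerhans cell and macrophage list, were lower as well, Cd74 at 9.13, 8.42 and 36.5 CPM, against 59.9, 500 and 196. The sebaceous and antigen presentation transcripts thus stood in the Krt79-high cells, and whether these hold cells of other types was not tested. No inner root sheath, fibroblast, melanocyte, endothelial or muscle gene reached the minimum of UMIs in all 3 libraries. Such transcripts did occur in Krt79-high cells of single libraries. Inner root sheath and hair shaft genes summed to 458 CPM and melanocyte genes to 189 CPM there at 6 months, and fibroblast genes to 544 CPM at 12 months.

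**Figure D4:**
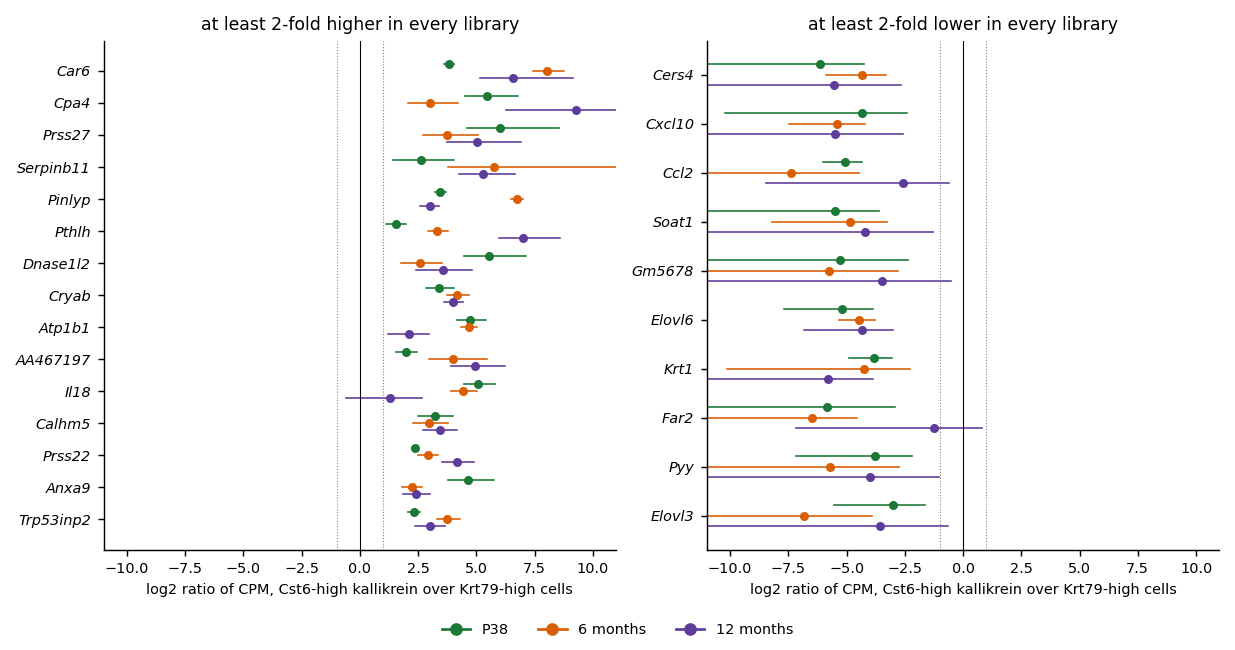
Log2 CPM ratio of Cst6-high kallikrein over Krt79-high cells for the 15 genes with the highest and the 10 with the lowest mean ratio, 1 point per library with exact conditional 95% intervals that run off the axis where a class has 0 UMIs; dotted lines mark 2-fold. All 3 points of each gene lie beyond the same dotted line, and Car6 has the highest mean, 6.13.

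Of the 98 higher genes 94 were still called without shared barcodes; Car6, Creb3l1, Gm15446 and Nck2 were lost. Without the highest cell of each gene and library 55 of the 98 were still called, and 71 without Gja1-bearing cells, which left 19 cells at P38.

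Granular-type cells (Krt10 at 0.5% or more and 3 or more UMIs of Lor, Flg and Flg2, with at most 2 of Klk6 and Klk10) numbered 5, 19 and 23, so that only 12 months had the 20 cells asked for and the comparison has no replicate. Of the 23 granular-type cells at 12 months, 7 had fewer than 1000 genes. Krt79 at 0.2% or more was found in 7 of the 23, which were thus Krt79-high cells as well. At 12 months 3553 genes were measured. Of these, 524 (14.7%) were at least 2-fold higher in Cst6-high kallikrein cells and 493 (13.9%) at least 2-fold lower, around a median of -0.06. Upper follicle genes were 6 of 10 higher and 0 lower: Defb6 was at 21202 CPM against 1013 (log2 ratio 4.38), Plet1, a surface protein of the HF junctional zone, at 2016 against 57.7 (5.09), Gata6, a transcription factor of the upper HF, at 136 against 12.8 (3.26), with Lrig1 and Fst also among them. Suprabasal keratins were 3 of 4 lower, among them Krt1 at 3.32 against 2437 CPM. Lipid barrier genes were 2 of 12 higher and 7 lower, and granular layer genes 2 of 9 higher and 5 lower, though Lor and Flg chose the granular-type cells.

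Krt6a and Krt16, stress keratins, were both higher than in granular-type cells, Krt6a at 316 CPM against 0, at least 32.8-fold with 3 counts as the floor. Areg was at 664 CPM against 44.9, Tgfa at 79.7 against 9.62 and Btc at 66.4 against 3.21, so 3 of 5 measured EGF family ligands were higher. Pthlh was at 359 CPM against 0 and Camk2n1, an inhibitor of CaM kinase II, at 342 against 0, at least 37.3-fold and 35.6-fold higher, Pthlh mainly from 1 cell. Lhx2, a homeobox gene of HF stem cells, was at 262 CPM against 0. In the other direction Wfdc21 was at 0 against 1145 CPM and the metallothionein Mt4 at 0 against 398 CPM, at least 115-fold and 39.9-fold lower. Tm4sf1, Ptn, Alcam, Calhm5, Cpa4 and Rptn were also among the 10 highest, and Kctd12, Ifitm6, Slurp1, Tspan8, Nccrp1, Serpina12 and Serpinb7 among the 10 lowest. Of the genes called, 475 higher and 450 lower ones were still called without shared barcodes, which left 18 granular-type cells.

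Between the male libraries, Cst6-high kallikrein cells at 12 months had more immediate early transcripts and fewer connexins than those at P38. Of 4353 genes measured, 942 (21.6%) were at least 2-fold higher at 12 months and 554 (12.7%) at least 2-fold lower, around a median of 0.29; centred on it, 596 were higher and 736 lower. The 11 immediate early and heat shock genes were 8 higher. Fos was at 4564 CPM at 12 months against 399 at P38 (log2 ratio 3.51), Jun at 3793 against 305 (3.63) and Egr1 at 2408 against 288 (3.06), all transcription factors of the immediate early response. In Krt79-high cells of the same libraries the log2 ratios were 2.52, 2.03 and 2.12, so these genes moved the same way outside the Cst6-high kallikrein cells. The heat shock gene Hspa1b was at 605 CPM against 224 (1.43), with -0.23 in Krt79-high cells. Gm10076 had 6.21, against 6.07 in Krt79-high cells.

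All 6 measured migratory niche genes were lower at 12 months, among them Gja1 at 29.9 CPM against 1042 (log2 ratio -5.05) and Gjb2 at 13.3 against 391 (-4.71). Gja1-bearing cells were 2 of 26 at 12 months against 12 of 31 at P38, and in Krt79-high cells Gja1 had a log2 ratio of -5.18. Apoe, the apolipoprotein E, was at 7577 CPM against 78186 (-3.37; -2.71 in Krt79-high cells), and Cstb at 2857 against 16428 (-2.52; -2.74 in Krt79-high cells). Of the genes with the lowest ratios, Rnase2b, a ribonuclease, and Car2, a carbonic anhydrase, had 0 UMIs at 12 months against 184 and 150 CPM at P38, at least 18.5-fold and 15.1-fold lower, while Sprr2i and Slurp1 came from 1 cell at P38. Of 6 small proline-rich genes 5 were lower.

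Higher at 12 months with a smaller change in Krt79-high cells were Ptn, a heparin-binding growth factor, at 495 CPM against 6.52 (6.11), Gadd45g, a stress response gene, at 116 against 1.30 (5.91; 1.88 in Krt79-high cells), Wnt4, a Wnt ligand, at 86.4 against 1.30 (5.49; 2.06), Tenm2 at 99.7 against 1.30 (5.69; 0.18), where 83% came from 1 cell, and Gm5860 at 69.8 against 0, at least 17.8-fold. The difference between these ratios and those of Krt79-high cells was not tested.

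**Figure D5:**
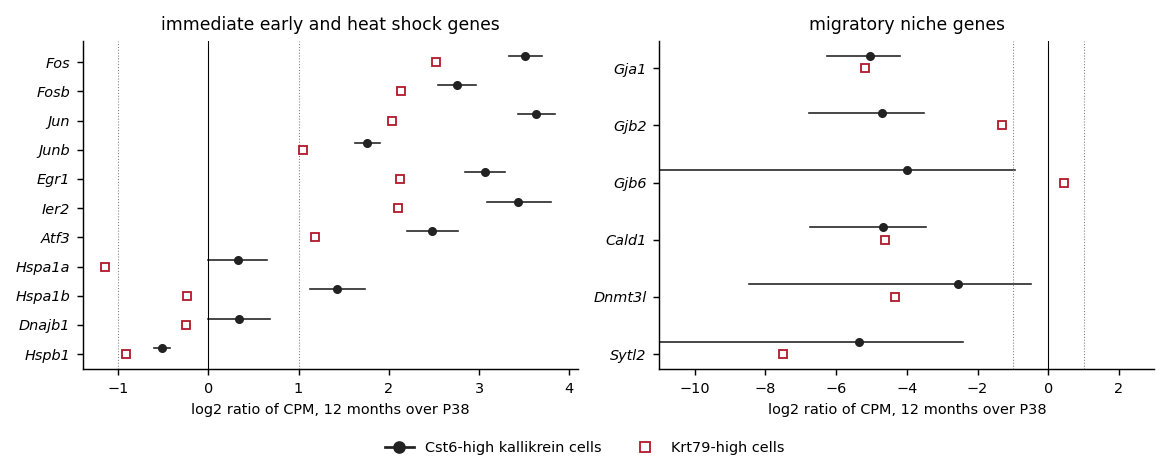
Log2 CPM ratio of 12 months over P38 for 11 immediate early and heat shock genes and 6 migratory niche genes; circles with exact conditional 95% intervals (running off the axis where 12 months has 0 UMIs) are Cst6-high kallikrein cells, and open squares are Krt79-high cells. Of the first list 8 of 11 circles lie at 2-fold or more, and all 6 circles of the second lie at 2-fold lower or beyond, with Gja1 at -5.05 in Cst6-high kallikrein and -5.18 in Krt79-high cells.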

How the data were processed

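Transcripts were counted in 3 back-skin libraries, 1 per age. The authors deposited raw UMI counts per gene and barcode for 32285 genes, not normalized. Reads were mapped to mm10 with Cell Ranger, 6.1.2 per the submitters' processing notes and the P38 file header and 6.0.0 per the headers of 6 and 12 months; the methods name an earlier version. The study's filter (over 200 but below 5000 genes, mitochondrial share below 15%) was applied. It kept the number of cells the study states at P38, slightly more at 12 months and far more at 6 months, where the share of cells therefore has a larger denominator. Other ages (P53 and 24 months) and open chromatin were not analysed here.

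Summed UMIs of a class in a library were scaled to CPM, with 95% intervals from the Poisson distribution. Log2 ratios had 0.5 counts added to each class; genes needed 20 UMIs in both classes together and classes 20 cells, except that 18 granular-type cells were used without shared barcodes and 19 cells at P38 without Gja1-bearing cells. The genes that chose the cells were left out of the counts. A gene was called when at least 2-fold in every library used. With 1 library per age, intervals cover counting error only and no p-value was computed. A floor of 3 counts was used per class and library where a class had 0 UMIs. Named genes were the label markers, the 15 highest and 10 lowest ratios over Krt79-high cells, 10 and 10 over granular-type cells, 8 and 8 between ages, and examples of 30 gene lists (307 of 311 genes matched). Genes of the comparison of Gja1- with Defb6-bearing cells, and the limits of those groups, were chosen after their values were seen. The cells and lists were chosen with earlier results of these data known. No doublets were removed; an alternative removed the highest Scrublet scores. Free RNA was not subtracted. A withheld item is not reported here. Promoters came from RefSeq (GRCm38.p6), where Klk6, Klk10 and Sprr1a matched. Alternatives changed the limits, minimum counts, added counts, scaling, filters and libraries. Python 3.11.15, numpy 2.4.6, scipy 1.17.1, pandas 2.3.3, matplotlib 3.10.9 and scanpy 1.11.5 were used.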

Additional observations from a re-analysis of the deposited data

Results flagged for a closer look

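Barcodes that the filter left out also met the rule for Cst6 and the kallikreins. At 6 months 26 barcodes with 5000 or more genes did so, with medians of 79364.5 UMIs and 6398 genes, a median Cst6 share of 6.58% and a median of 39 UMIs of Klk6 and Klk10. Of these, 14 were Gja1-bearing, 11 Defb6-bearing and 1 both, and 8 had 3 or more Car6 UMIs. Whether they are single cells was not tested. A further 9 barcodes at 6 months met the rule with 15% or more mitochondrial UMIs, with medians of 3554 UMIs and 3.02% Cst6, of which 4 were Gja1-bearing, 1 Defb6-bearing and 4 neither.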

How the results depend on the processing

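At 6 months the 59 cells became 92 with 2 kallikrein UMIs, 264 with kallikreins at 0.03% of UMIs, 38 with at least 1000 genes per cell and 28 after thinning, which left 12 and 11 at P38 and 12 months. Against Krt79-high cells (98 higher and 297 lower), thinning gave 39 and 81, at least 1000 genes 211 and 952 (P38 and 6 months only), no minimum 225 and 592, a minimum of 50 UMIs 65 and 139, and centring 187 and 145. The lower genes numbered 140 with Krt79 at 0.5%, 138 with 2 counts added and 590 as a mean over cells. Leaving out 1 library in turn gave 171 to 212 higher and 436 to 1067 lower. Of the alternatives added after seeing the data, leaving Cst6 out of the totals gave 183 lower, and leaving out the highest cell of each gene 55 higher and 669 lower. Against granular-type cells (524 and 493), no upper limit on genes gave 196 and 309 (6 and 12 months), no minimum 2540 and 2964, a minimum of 50 UMIs 233 and 198, a mean over cells 842 and 933, and leaving out the highest cell 304 higher. Between 12 months and P38 (942 and 554), thinning gave 180 and 145, no minimum 4326 and 1114, a minimum of 50 UMIs 383 and 327, and centring 596 higher. Of 1228 ratios of 61 named genes, 5 turned: between 12 months and P38, kallikreins at 0.03% gave Slurp1 3.05, Nccrp1 0.98 and Sprr2i 1.47, and leaving out the highest cell gave Slurp1 and Sprr2i 1.33 each. The cause was not tested where the construction (fewer cells, libraries or UMIs) does not show it. The age and granular-type comparisons at 1000 genes per cell, and the granular-type comparison after thinning, were not run because fewer than 20 cells remained. No paired analysis was possible because each age had 1 library and no test was made. Low depth and few cells limit all ratios of genes with few UMIs, above all at 12 months.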
